A study of Homo sapiens with 4 samples.

Results

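Nucleated human cells show fragments of their own proteins on the surface in a complex of an HLA class I heavy chain and the light chain beta-2-microglobulin. The proteasome cuts the proteins, the transporter TAP moves the peptides into the endoplasmic reticulum, and a loading complex of tapasin and chaperones helps an empty heavy chain to bind one. Interferons raise many of these genes, including the 3 catalytic subunits that turn the standard proteasome core into the immunoproteasome. T cells read the classical molecules, whereas the non-classical HLA-E is read mainly by the CD94/NKG2 receptors of natural killer cells.

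The genes described here are 9 of the 58870 gene rows of a total RNA dataset from the human skin fibroblast line BJ. They were taken by symbol and are the heavy chain genes HLA-B, HLA-C, HLA-E and HLA-F, the light chain gene B2M, the peptide transporter genes TAP1 and TAP2, and the immunoproteasome genes PSMB8 and PSMB9. Each symbol had 1 row, and all 9 passed the filter on low counts. Dox-treated cells were compared with control cells, with 2 libraries in each group. The Dox group was exposed for 24 hours to 250 nM of the agent given in the labels as Dox and was then kept for 10 days to become senescent, and its titles call the cells aged. Control cells received the solvent DMSO on the same schedule, and their titles call them young. All libraries came from this 1 line, and the labels do not say whether replicates were separate cultures, so the spread behind each p-value is that between these libraries and may be technical.

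Expected counts, RSEM's estimates of reads per gene, summed to 42880682 and 43429426 in the Dox libraries and to 42744729 and 47798920 in the control libraries. The replicates of the Dox pair lay further apart than those of the control pair, with a chi-square per degree of freedom of 60.5 for Dox against 2.4 for control, taken over genes whose counts summed to 20 or more. The log2 ratio of Dox replicate 2 to Dox replicate 1 followed transcript GC content (Spearman rho 0.58 across genes, which are not independent replicates), against 0.016 for the control pair. The 8 fibroblast markers summed to 20302 and 24955 TMM-scaled CPM, a library-scaled count, in Dox and to 28312 and 27867 CPM in control. The collagens COL1A1, COL1A2 and COL3A1 carried most of that sum and were lower in both Dox libraries than in both control libraries. PDGFRA (93.4 and 93.1 CPM in Dox, 174 and 170 CPM in control) was lower too. So was PDGFRB (203 and 247 CPM in Dox, 470 and 462 CPM in control). DCN, LUM and THY1 were instead higher in both Dox libraries than in both control libraries. Of 5 leukocyte markers, CD3D and CD3E were at 0 counts in every library, while PTPRC had 90 and 83 counts in Dox and 9 and 11 in control. The macrophage and dendritic markers summed to 0.491 and 0.683 CPM in Dox and 0.288 and 0.363 CPM in control, with AIF1 and ITGAX at 0. Endothelial markers, mostly TEK, summed to 3.51 and 3.99 CPM in Dox and 3.98 and 4.76 CPM in control. Keratinocyte markers summed to at most 0.187 CPM in any library and melanocyte markers to at most 0.397 CPM. The part of these other markers in the results was not tested.

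HLA-E was the 1 of the 9 genes that passed the test, and it rose 1.58-fold in Dox-treated cells. The test was edgeR's quasi-likelihood test over all 16749 tested genes, with a Benjamini-Hochberg adjusted p threshold of 0.05. Among all tested genes 16.5% were higher, 13.8% were lower and 30.3% were called in either direction, so 1 of 9 was no larger a share than the background. HLA-B and TAP1 missed the threshold narrowly, and the immunoproteasome genes PSMB8 and PSMB9 had lower values in Dox. Both Dox libraries lay above both control libraries for 5 of the 9 genes and below them for 2, where 34.6% and 34.5% of all tested genes did so. At the median the 9 genes had a log2 fold change of 0.20, against -0.0023 for all tested genes. No member was called lower by edgeR, nor by DESeq2's Wald test, and the count at an unadjusted p under 0.05 was 0 lower and 4 higher, where 20.1% and 22.5% of all tested genes were so.

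The member counts depended on which library was used. Without Dox replicate 1, edgeR called 5 members higher and 1 lower, and without Dox replicate 2 it called 5 higher and 3 lower. In those fits the spread came from the close control pair alone, and the background grew too. Of all genes tested there, 26% were called higher and 26.7% lower without Dox replicate 1, and 27% higher and 29.1% lower without Dox replicate 2. HLA-B, HLA-E, B2M and TAP1 were called higher and PSMB8 was called lower in both of those fits. Without control replicate 1 or control replicate 2, HLA-E was again the 1 member called. The background was then 8.62% higher and 6.23% lower without control replicate 1, and 7.83% higher and 5.73% lower without control replicate 2.

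**Figure D1:**
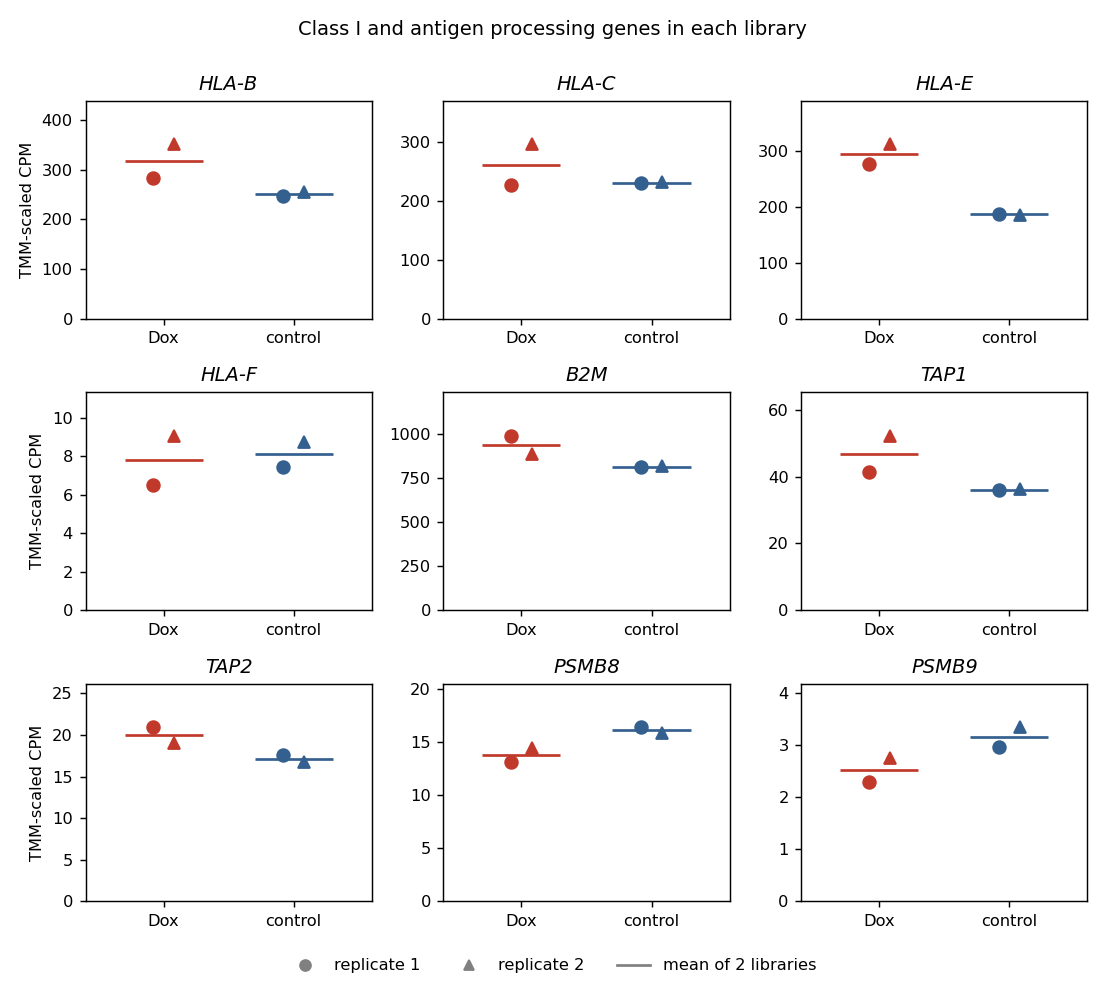
TMM-scaled CPM (vertical axes, each from 0) of the 9 genes in the 2 Dox libraries (red) and the 2 control libraries (blue), with circles for replicate 1, triangles for replicate 2 and bars for means. HLA-E was at 278 and 313 CPM in Dox and at 187 and 187 CPM in control without overlap, while 1 Dox replicate of HLA-C and of HLA-F lay below both control values and the other above both.

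Among the classical heavy chains, HLA-B (chromosome 6, 31269491 to 31357188 in GRCh38, GENCODE 29, minus strand) was at 284 and 351 CPM in Dox and at 247 and 255 CPM in control. Both Dox libraries were above both controls, but the Dox replicates differed from each other by more than the lower of them differed from control. Its log2 fold change of 0.34 (SE 0.11) did not pass (edgeR adjusted p = 0.0628), with 0.47 when Dox replicate 1 was left out and 0.18 when Dox replicate 2 was. HLA-C (chromosome 6, 31268749 to 31272130, minus strand) was at 228 and 296 CPM in Dox and at 230 and 233 CPM in control. Dox replicate 1 was below both control libraries and Dox replicate 2 was above them, and the log2 fold change of 0.18 (SE 0.13) did not pass (edgeR adjusted p = 0.328). Without Dox replicate 2 the HLA-C value was -0.025, so its higher Dox mean rested on that library. The annotated spans of HLA-B and HLA-C overlap in part, and how many reads the counting divided between them was not measured here. HLA alleles differ between people, and how well the reads of this line matched the annotated alleles was not tested.

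The non-classical HLA-E (chromosome 6, 30489467 to 30494205, plus strand) had 11875 and 14176 expected counts in Dox and 7807 and 8746 in control. In CPM these were 278 and 313 in Dox against 187 and 187 in control, with means of 295 ± 24.6 and 187 ± 0.363 (SD, n = 2 each). In bulk RNA such as this, a change in the share of a cell type and a change in RNA per cell cannot be told apart. The groups did not overlap, and the log2 fold change was 0.66 (SE 0.08, edgeR adjusted p = 0.00272). The call held with each library left out in turn, at log2 fold changes from 0.57 to 0.73. It was lost against a required change of 1.5-fold (edgeR glmTreat adjusted p = 0.465). Limma lost it too on log2(TPM + 1) (adjusted p = 0.518) and log2(TPM + 0.1) (adjusted p = 0.501). With TPM rescaled over protein-coding genes, an alternative added after seeing the data, limma kept the call (adjusted p = 0.00216). HLA-F (chromosome 6, 29722775 to 29738528, plus strand), a non-classical heavy chain of much lower level, was at 6.501 and 9.06 CPM in Dox and at 7.43 and 8.75 CPM in control. These groups overlapped, and the log2 fold change was -0.06 (SE 0.18, edgeR adjusted p = 0.842). Without Dox replicate 2 it was -0.32 and was called (adjusted p = 0.00746), and without Dox replicate 1 it was 0.15. Its antisense partner HLA-F-AS1 had 73 and 60 expected counts in Dox and 46 and 47 in control, and the sources used here do not say whether counting used strand.

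Summed to 1 feature, the reads of HLA-B, HLA-C, HLA-E and HLA-F amounted to 796 and 969 CPM in Dox and to 671 and 683 CPM in control. This sum, which does not depend on how reads were divided among those 4 genes, had a log2 fold change of 0.38 (SE 0.10, edgeR adjusted p = 0.0366). Within each library, the per-length ratio of HLA-E to HLA-B in TPM (a length- and library-scaled abundance) was 0.327 and 0.285 in Dox and 0.243 and 0.214 in control. This ratio was higher in both Dox libraries than in both control libraries, and the exact permutation test gave p = 0.333, the smallest p that 2 libraries against 2 allow. HLA-G, a further non-classical heavy chain, had 1 and 2 counts in Dox and 0 and 0 in control, where a count of 0 allows up to 3 counts, so no difference was detectable at this depth.

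The light chain gene B2M (chromosome 15, 44711487 to 44718877, plus strand) was at 991 and 887 CPM in Dox and at 815 and 817 CPM in control. Both Dox libraries were above both controls, and here Dox replicate 1 was the higher of the pair, unlike for the heavy chains. The log2 fold change of 0.20 (SE 0.08) did not pass (edgeR adjusted p = 0.106), and it was 0.11 without Dox replicate 1. The TPM ratio of HLA-B to B2M was 0.182 and 0.248 in Dox and 0.198 and 0.225 in control, with overlapping groups. The ratio of HLA-E to B2M was 0.0594 and 0.0708 in Dox and 0.0481 and 0.0481 in control, without overlap (exact permutation p = 0.333, the smallest possible).

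The Dox replicates were also set beside genes of like GC content. HLA-B, with a mean transcript GC content of 59.7%, differed by 0.30 on the log2 scale between Dox replicate 2 and Dox replicate 1, and the 1962 tested genes within 2 percentage points of its GC content had a median difference of 0.28. B2M, with 41.2% GC, differed by -0.16, and the median of the 2705 genes nearest in GC was -0.14. HLA-C (0.38, against a median of 0.32) and HLA-F (0.48, against 0.21) went the same way as HLA-B. So did TAP1 (0.34, against 0.13), PSMB8 (0.14, against 0.09) and PSMB9 (0.27, against 0.09), each by more than its GC-matched genes. HLA-E differed by less than its GC-matched genes (0.17, against 0.32), and TAP2 differed the other way from its own (-0.14, against 0.10). With offsets that remove the GC trend of each library, edgeR gave HLA-E a log2 fold change of 0.64 (adjusted p = 0.000675), TAP1 0.37 (adjusted p = 0.0298) and HLA-B 0.32 (adjusted p = 0.134).

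TAP1 and TAP2 encode the subunits of the peptide transporter. TAP1 (chromosome 6, 32845209 to 32853978, minus strand) was at 41.3 and 52.3 CPM in Dox and at 36.0 and 36.2 CPM in control. The groups did not overlap, and the log2 fold change of 0.38 (SE 0.12) did not pass (edgeR adjusted p = 0.0571), with 0.52 when Dox replicate 1 was left out and 0.19 when Dox replicate 2 was. TAP2 (chromosome 6, 32821833 to 32838780, minus strand) was at 20.95 and 19.0 CPM in Dox and at 17.5 and 16.7 CPM in control, again without overlap (log2 fold change 0.22, SE 0.09, edgeR adjusted p = 0.122, and 0.14 without Dox replicate 1). In TPM the TAP2 values were 2.69 and 2.23 in Dox and 1.83 and 2.10 in control. RSEM's effective length of TAP2, which depends on the estimated mix of isoforms, was 1922 and 3377 bases in Dox and 2687 and 2293 bases in control, so its per-length level is less certain than its count. The TPM ratio of TAP2 to TAP1 was 0.539 and 0.238 in Dox and 0.384 and 0.430 in control, with both controls between the Dox values.

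**Figure D2:**
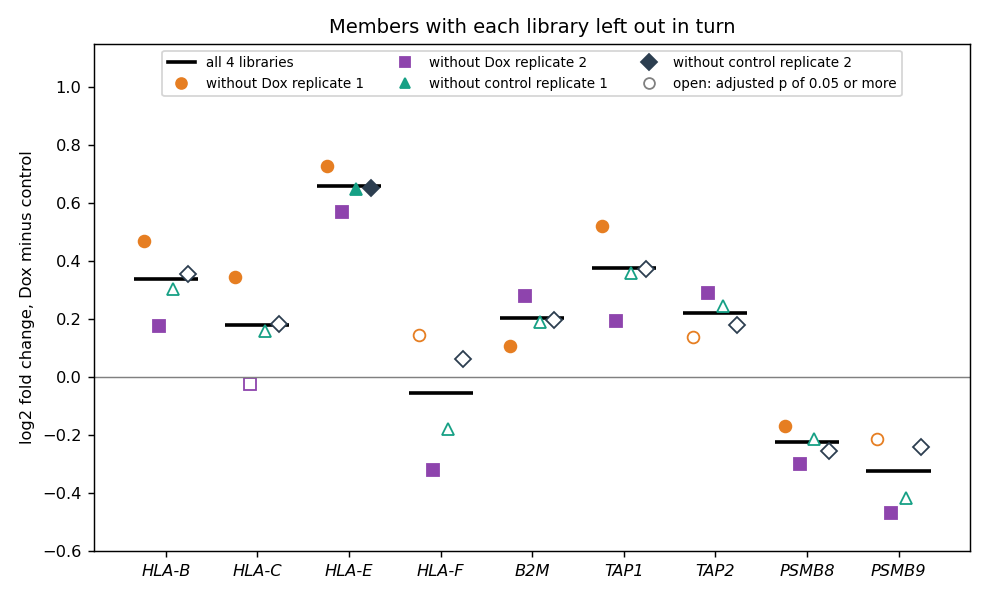
The log2 fold change, Dox minus control (vertical axis), of each of the 9 genes with all libraries (black bars) and with each library left out in turn (symbols, filled where edgeR's adjusted p is under 0.05). HLA-E stayed between 0.57 and 0.73 and was filled throughout, whereas HLA-C was at -0.025 without Dox replicate 2 and HLA-F at 0.15 without Dox replicate 1.

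PSMB8 and PSMB9 encode catalytic subunits that replace PSMB5 and PSMB6 in the immunoproteasome, and PSMB10 replaces PSMB7. PSMB8 (chromosome 6, 32840717 to 32844703, minus strand) was at 13.1 and 14.5 CPM in Dox and at 16.4 and 15.9 CPM in control. PSMB9 (chromosome 6, 32844136 to 32859585, plus strand) had 98 and 125 counts in Dox and 124 and 157 in control, or 2.29 and 2.76 CPM against 2.97 and 3.35 CPM. Both Dox libraries lay below both controls for each gene, and neither passed, at log2 fold changes of -0.23 (SE 0.10, edgeR adjusted p = 0.124) for PSMB8 and -0.32 (SE 0.17, edgeR adjusted p = 0.207) for PSMB9. PSMB10 was at 7.34 and 10.4 CPM in Dox and at 10.4 and 9.49 CPM in control (log2 fold change -0.17, SE 0.17, edgeR adjusted p = 0.512). PSMB8-AS1 overlaps PSMB8 and TAP1 on the opposite strand and PSMB9 on the same strand. It had 24 and 33 counts in Dox and 37 and 45 in control.

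The constitutive counterparts gave no call. PSMB5 had a log2 fold change of 0.14 (SE 0.08), PSMB6 of -0.21 (SE 0.07) and PSMB7 of -0.03 (SE 0.07), and each missed the threshold. The TPM ratio of PSMB8 to PSMB5 was 0.150 and 0.162 in Dox and 0.205 and 0.192 in control, a log2 difference of -0.35 without overlap (exact permutation p = 0.333, the smallest possible). For PSMB9 to PSMB6 the ratio was 0.0449 and 0.0507 in Dox and 0.0502 and 0.0556 in control, and the groups overlapped (exact permutation p = 0.667). For PSMB10 to PSMB7 it was 0.178 and 0.232 in Dox and 0.231 and 0.214 in control, also overlapping, and the log2 difference of -0.13 was 0.06 without Dox replicate 1. Of the 14 constitutive 20S core genes, 2 fell, 12 missed the threshold, and the median was -0.14 on the log2 scale, where 13.8% of all tested genes were lower. They were PSMA5, which fell by 0.55 (SE 0.08, edgeR adjusted p = 0.00347), and PSMA4, which fell by 0.28 (SE 0.07, edgeR adjusted p = 0.0258). Neither passed without control replicate 2 (adjusted p = 0.0634 and 0.374), nor did PSMA4 without control replicate 1 (adjusted p = 0.274). Without Dox replicate 1, and likewise without Dox replicate 2, 9 of the 14 were called lower and 1 higher, beside backgrounds of 26.7% and 29.1% lower in those fits.

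**Figure D3:**
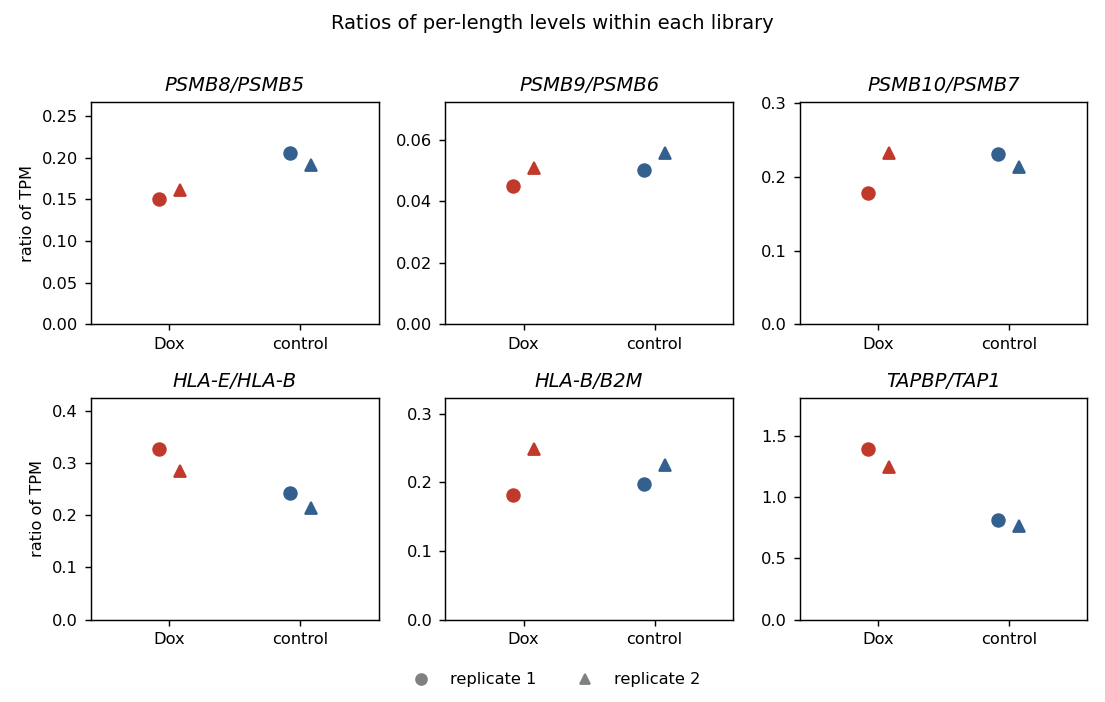
Ratios of TPM within each library (vertical axes, each from 0), with Dox in red, control in blue, circles for replicate 1 and triangles for replicate 2. PSMB8/PSMB5 was lower (0.150 and 0.162, against 0.205 and 0.192) and HLA-E/HLA-B and TAPBP/TAP1 were higher in both Dox libraries, while the groups overlapped for PSMB9/PSMB6, PSMB10/PSMB7 and HLA-B/B2M.

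Per length, the 9 genes kept nearly the same order in every library. B2M was highest at 497 and 753 TPM in Dox and 470.2 and 483 TPM in control, followed by HLA-B at 90.5 and 187 TPM in Dox and 93.1 and 109 TPM in control. HLA-C came next at 42.4 and 88.4 TPM in Dox and 49.2 and 50.7 TPM in control, then HLA-E at 29.5 and 53.3 TPM in Dox and 22.6 and 23.2 TPM in control. TAP1 (4.99 and 9.36 TPM in Dox, 4.77 and 4.88 TPM in control) and PSMB8 (3.40 and 5.94 TPM in Dox, 4.76 and 4.71 TPM in control) followed, with TAP1 the higher of the pair in each library and the control values of both genes between 4.71 and 4.88 TPM. HLA-F and TAP2 came after them and changed places in Dox replicate 1, and PSMB9 was lowest at 0.670 and 1.26 TPM in Dox and 0.990 and 1.13 TPM in control. TPM values of 1 gene should not be read across these libraries. Genes with an effective length under 150 bases took 90.4% and 84.4% of all TPM in Dox and 89.2% and 88.7% in control, and protein-coding genes totalled 91109 and 149263 TPM in Dox and 104319 and 108381 TPM in control.

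Peptide loading was described by the partners of these genes. Of 7 genes of the loading complex and its chaperones, 6 rose and 1 missed the threshold, with a median of 0.39 on the log2 scale against -0.0023 for all tested genes, of which 16.5% were higher. TAPBP, which encodes tapasin, the bridge between TAP and the heavy chain, was at 94.5 and 98.5 CPM in Dox and at 46.7 and 43.6 CPM in control. Its log2 fold change of 1.10 (SE 0.08, edgeR adjusted p = 0.00032) held with each library left out. PDIA3, the disulphide isomerase bound to tapasin, was at 486 and 504 CPM in Dox and at 334 and 342 CPM in control (log2 fold change 0.55, SE 0.07, edgeR adjusted p = 0.00284). The chaperone gene CALR was at 648 and 782 CPM in Dox and at 480.2 and 503 CPM in control (0.54, SE 0.10, edgeR adjusted p = 0.0114), and UGGT1, which checks glycoprotein folding, had a log2 fold change of 0.39 (SE 0.07, edgeR adjusted p = 0.00887). Without control replicate 1 or without control replicate 2, the spread came from the wider Dox pair alone, and fewer of all genes were called. TAPBP kept its call in each of these fits and the other called genes of this list lost theirs. CANX and BCAP31, also chaperones of the secretory pathway, were not called with GC-trend offsets either (edgeR adjusted p = 0.293 and 0.101). With control replicate 1 and then control replicate 2 left out, PDIA3 had log2 fold changes of 0.52 and 0.56. In the same order, CALR had 0.49 and 0.57, and UGGT1 had 0.36 and 0.41. The TPM ratio of TAPBP to TAP1 was 1.39 and 1.24 in Dox and 0.811 and 0.762 in control, without overlap (exact permutation p = 0.333, the smallest possible).

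**Figure D4:**
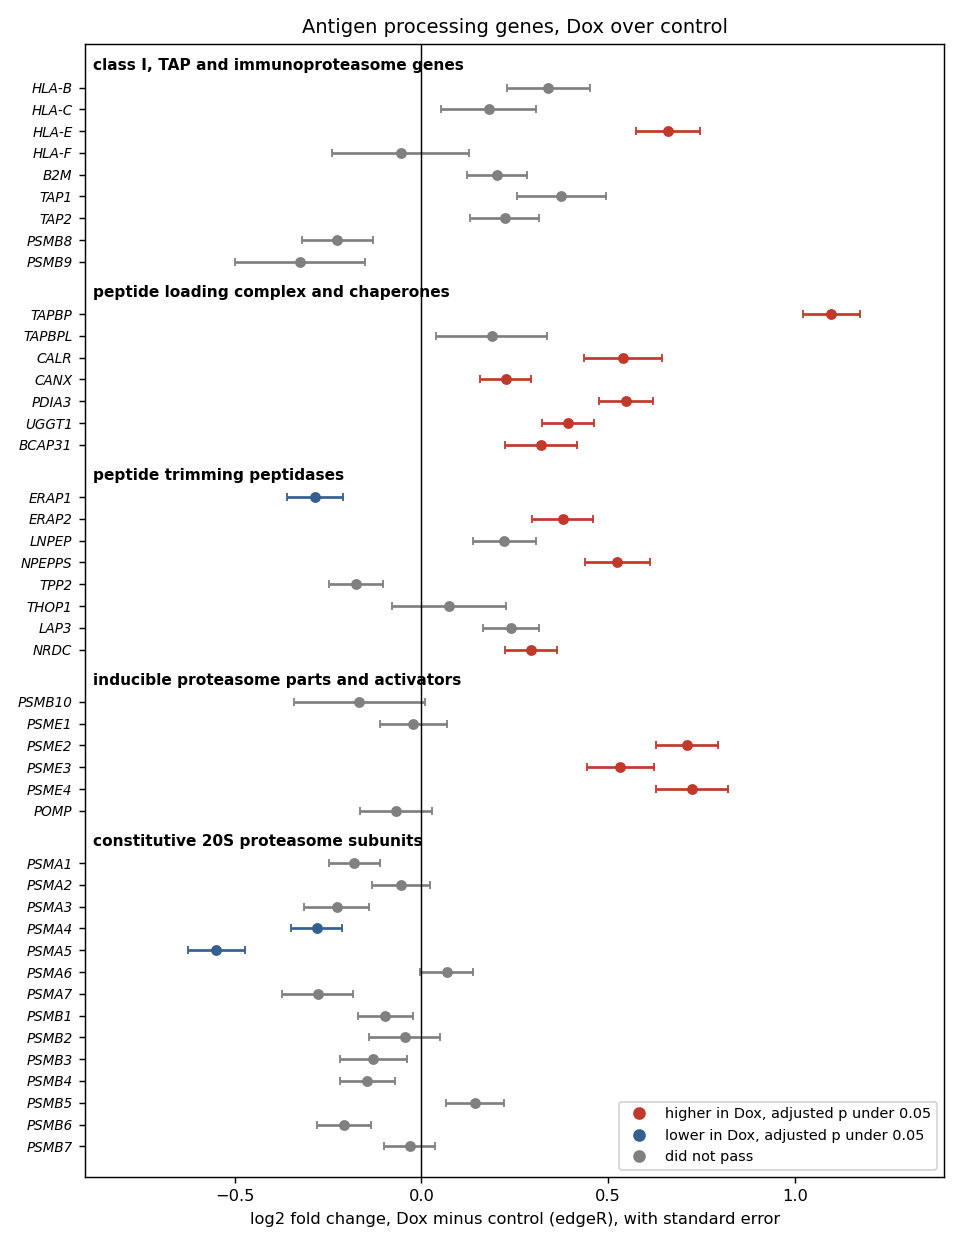
The log2 fold change, Dox minus control, with its standard error (horizontal axis) for the 9 genes and for 4 lists of the pathway, red where higher and blue where lower at an edgeR adjusted p under 0.05. TAPBP at 1.10 lies furthest to the right, 6 of the 7 loading complex genes are red, and 12 of the 14 constitutive proteasome genes did not pass.

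Peptide trimming enzymes moved both ways, with 3 of 8 higher, 1 lower and 4 that did not pass (median 0.23), beside 16.5% higher and 13.8% lower among all tested genes. ERAP1 and ERAP2 are the endoplasmic reticulum aminopeptidases that shorten peptides to the length class I molecules bind. ERAP2 was at 23.5 and 23.1 CPM in Dox and at 18.0 and 17.7 CPM in control (log2 fold change 0.38, SE 0.08, edgeR adjusted p = 0.0166). ERAP1 was at 28.97 and 28.1 CPM in Dox and at 34.9 and 34.6 CPM in control (log2 fold change -0.28, SE 0.08, edgeR adjusted p = 0.0332). The cytosolic aminopeptidase gene NPEPPS had a log2 fold change of 0.52 (SE 0.09, edgeR adjusted p = 0.00663) and the metalloendopeptidase gene NRDC one of 0.29 (SE 0.07, edgeR adjusted p = 0.0231). With control replicate 1 or control replicate 2 left out, no gene of this list was called by edgeR. In those fits the spread came from the wider Dox pair alone, and fewer of all genes were called as well. In that order, the log2 fold changes were 0.38 and 0.36 for ERAP2 and -0.29 and -0.30 for ERAP1. They were 0.51 and 0.52 for NPEPPS and 0.28 and 0.29 for NRDC. With Dox replicate 1 and then Dox replicate 2 left out, ERAP2 had log2 fold changes of 0.35 and 0.39 and ERAP1 had -0.32 and -0.26. In the same order, NPEPPS had 0.42 and 0.61 and NRDC had 0.26 and 0.31.

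Of 6 inducible proteasome parts and activators, 3 rose and 3 did not pass (median 0.26), beside 16.5% higher among all tested genes. PSME2, a subunit of the interferon-inducible PA28 cap, was at 39.6 and 43.4 CPM in Dox and at 25.1 and 25.6 CPM in control (log2 fold change 0.71, SE 0.08, edgeR adjusted p = 0.00189). Its partner PSME1 was at 37.6 and 42.5 CPM in Dox and at 39.3 and 42.0 CPM in control and did not pass (log2 fold change -0.02, SE 0.09). PSME4 (0.72, SE 0.10, edgeR adjusted p = 0.00319) and PSME3 (0.53, SE 0.09, edgeR adjusted p = 0.00707) encode other caps of the core, and PSME3 was lost without control replicate 1 (adjusted p = 0.0905). The class I-like genes gave 1 call among 4 tested, beside 16.5% higher among all tested genes. It was PROCR, the endothelial protein C receptor, with a log2 fold change of 1.43 (SE 0.16, edgeR adjusted p = 0.00153). With each library left out in turn, the log2 fold change of PROCR ran from 1.24 to 1.58.

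Of the transcription regulators that act on class I promoters, 3 are described here. NLRC5, the main transactivator of class I genes, was at 16.6 and 19.8 CPM in Dox and at 17.7 and 16.4 CPM in control (log2 fold change 0.09, SE 0.11, edgeR adjusted p = 0.580). IRF1, an interferon-induced factor, was at 13.2 and 14.8 CPM in Dox and at 15.0 and 15.4 CPM in control (log2 fold change -0.11, SE 0.10, edgeR adjusted p = 0.428). NFYB, a subunit of the factor that binds CCAAT boxes, fell by 0.54 (SE 0.09, edgeR adjusted p = 0.00663), and was not called without control replicate 2 (adjusted p = 0.0566).

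Of 7 tested interferon receptors and Janus kinases, IFNAR1 rose, IFNGR1 fell and 5 did not pass, which is near the background of 16.5% higher and 13.8% lower. IFNAR1 had a log2 fold change of 0.49 (SE 0.11, edgeR adjusted p = 0.0188) and IFNGR1 of -0.28 (SE 0.07, edgeR adjusted p = 0.0287). Without control replicate 1 and without control replicate 2 they were not called (adjusted p = 0.101 and 0.125 for IFNAR1, 0.340 and 0.331 for IFNGR1). The list had 2 higher and 3 lower without Dox replicate 1, and 2 higher and 4 lower without Dox replicate 2, in fits that called 26% to 29.1% of all genes in each direction. The interferon genes were near 0, with 0 and 1 counts of IFNG and 2 and 0 counts of IFNB1 in Dox and 0 of either in both control libraries, where a count of 0 allows up to 3.

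Most class II genes, which serve antigen presentation in professional presenting cells, were too low to test. HLA-DMA, which encodes part of a class II peptide exchanger, had 95 and 117 counts in Dox and 48 and 52 in control (log2 fold change 1.09, SE 0.19, edgeR adjusted p = 0.00815). HLA-DPA1 had 82 and 97 counts in Dox and 37 and 51 in control (1.03, SE 0.21, edgeR adjusted p = 0.0131, and 0.0742 without control replicate 1). Its partner chain HLA-DPB1 had 68 and 69 counts in Dox and 68 and 67 in control. The class II transactivator CIITA had 4 and 3 counts in Dox and 1 and 1 in control, and HLA-DRA had 0 and 2 in Dox and 0 and 0 in control. PTPRC, given above with the leukocyte markers, had more counts in the same Dox libraries, and its part here was not tested.

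The RefSeq table (GRCh38.p14, 250 bases before to 50 after each start) gave promoter windows for 8 of the 9 genes, all but HLA-E, and they were searched on both strands for 4 sets of letters. The interferon regulatory factor pattern (a pair of GAAA runs with any 2 bases between them) was in a window of HLA-F, B2M, TAP1, TAP2 and PSMB8, or 5 of 8 genes, and in 3.57% of all 35116 windows of that length. CCAAT was in 6 of 8 and in 34.6% of all windows, TGACGC, letters of the X2 box that binds cyclic AMP response factors, in 3 of 8 and in 9.14%, and an NF-kB pattern (GGG, which any 2 bases part from TT, which any base parts from CC) in 3 of 8 and in 5.68%. A gene was counted if any of its windows matched, whereas the shares over all windows are per window. TAP1 and PSMB9 were both counted for CCAAT on the same match, which lies in the bases their windows share. TAP1 and PSMB8 each had a further window without a match of any pattern. HLA-B had CCAAT, the NF-kB pattern and also TGACGC, and TAP1 and B2M had CCAAT and the interferon regulatory factor and NF-kB patterns. TAPBP, which is not among the 9 genes, had the interferon regulatory factor and NF-kB patterns. Matches of different patterns did not overlap in these windows. A match says only that these letters are present, and any link of the patterns to the expression values was not tested. The windows of those 4 genes are shown 5′ to 3′ on the gene's strand, with every match in capitals. They are chr6:31357130-31357429 (minus) for HLA-B, chr15:44711267-44711566 (plus) for B2M, chr6:32853655-32853954 (minus) for the upstream start of TAP1 and chr6:33314029-33314328 (minus) for TAPBP. The TAP1 window meets that of PSMB9, which is transcribed the other way, and they share 13 bases.
HLA-B: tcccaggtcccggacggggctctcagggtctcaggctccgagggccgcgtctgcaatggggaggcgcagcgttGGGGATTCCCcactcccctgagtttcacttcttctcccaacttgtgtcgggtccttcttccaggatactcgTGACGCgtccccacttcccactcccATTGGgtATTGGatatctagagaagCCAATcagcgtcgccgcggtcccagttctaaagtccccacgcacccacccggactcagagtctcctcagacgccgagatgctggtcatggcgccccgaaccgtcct
B2M: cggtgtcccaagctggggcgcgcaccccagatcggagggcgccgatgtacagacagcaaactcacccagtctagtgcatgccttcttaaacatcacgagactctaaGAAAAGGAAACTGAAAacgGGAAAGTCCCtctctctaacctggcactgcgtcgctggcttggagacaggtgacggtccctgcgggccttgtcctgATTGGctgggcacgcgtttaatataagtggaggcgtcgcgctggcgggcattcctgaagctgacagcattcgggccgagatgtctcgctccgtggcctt
TAP1: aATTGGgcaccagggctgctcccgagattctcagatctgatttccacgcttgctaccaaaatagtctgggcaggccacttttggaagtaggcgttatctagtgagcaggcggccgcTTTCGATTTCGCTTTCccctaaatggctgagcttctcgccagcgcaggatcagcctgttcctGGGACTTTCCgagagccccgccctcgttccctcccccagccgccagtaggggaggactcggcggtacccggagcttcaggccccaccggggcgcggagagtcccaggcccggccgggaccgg
TAPBP: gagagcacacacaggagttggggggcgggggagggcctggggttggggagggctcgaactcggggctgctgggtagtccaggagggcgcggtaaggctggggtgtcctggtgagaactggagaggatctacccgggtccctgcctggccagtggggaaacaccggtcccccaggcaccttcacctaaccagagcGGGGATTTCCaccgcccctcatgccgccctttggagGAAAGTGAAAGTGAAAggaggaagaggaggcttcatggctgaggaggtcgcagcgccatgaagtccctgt

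The mean profile of the 9 genes over the 4 libraries, each gene centred on its own mean in log2 CPM, was most like that of AKAP12, DPH1, RBM14, LPCAT1 and PKIG among 8560 genes averaging 10 CPM or more. Their Euclidean distances ran from 0.0133 to 0.0186. AKAP12, a scaffold for protein kinase A, was at 187 and 213 CPM in Dox and at 178 and 181 CPM in control. All 5 had Dox replicate 2 as the highest library, and none passed the test.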

How the data were processed

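The submitters' processing notes name RSEM, STAR, cutadapt and Picard as tools and hg38 as the build. No source used here gives a version of any of them, or an annotation release. Per the file headers, each library has 1 deposited table of expected counts, TPM, FPKM and effective length in bases per gene. The deposited expected counts are estimated reads that need not be whole, and they were rounded before testing. The deposited TPM values are scaled by effective length and to 1 total per library, and were used for ratios and order within a library. The deposited FPKM values were not used for any result. Coordinates and GC content came from GENCODE 29 (GRCh38), in which 99.5% of the gene identifiers were found. The series design puts the exposure before the days of senescence, which is followed here, although the sample protocol can be read the other way.

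Genes were kept by edgeR's filterByExpr (minimum count 10, minimum total 15), scaled by TMM and tested with the quasi-likelihood test with group as the only term and all 4 libraries. P-values were Benjamini-Hochberg adjusted over all tested genes with a threshold of 0.05. The standard error is the log2 fold change divided by the square root of F. CPM values are TMM-scaled. Ratios were compared by a two-sided exact permutation test on log2 values. Counts of 0 and floors cover counting error only. The fits were tested on simulated data. The alternatives tried comprised other scalings, filters or tests, log2(TPM + 1) and log2(TPM + 0.1) with limma, GC-trend offsets (lowess span 0.3), a replicate block and leaving out each library, and protein-coding genes alone and TPM rescaled over them were added after seeing the data. Tools were edgeR 4.0.16, DESeq2 1.42.0 and limma 3.58.1 in R 4.3.3, and matplotlib 3.10.9 in Python 3.11.15.

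The 9 genes and the 8 pathway lists were chosen with earlier results of these data known. Named were the 9 genes, up to 4 genes per list with the smallest adjusted p among those past the threshold, PSMB5, PSMB6, PSMB7, PSMB10, NLRC5, IRF1 and TAPBP, and the 5 nearest profiles. Part of the list of transcription regulators is not reported here. PSME1, CANX, BCAP31, HLA-G, HLA-DPB1, HLA-DRA, CIITA, IFNG, IFNB1, HLA-F-AS1 and PSMB8-AS1 were named after their values were seen. Promoter windows are from RefSeq.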

Additional observations from a re-analysis of the deposited data

How the results depend on the processing

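The members called higher numbered 2 with library totals alone, 3 without small RNAs and mitochondrial genes, 3 with no filter on low counts, 3 by DESeq2's Wald test, 2 with GC-trend offsets, 3 among protein-coding genes, 2 with limma on TPM rescaled over protein-coding genes, and 0, 0 and 0 with edgeR's glmTreat at 1.5-fold, log2(TPM + 1) and log2(TPM + 0.1) in turn. Of 64 pathway genes tested, 17 were called higher and 5 lower with the settings of the report, beside 16.5% and 13.8% of all tested genes. Under the last 3 settings, 2, 0 and 1 pathway genes were higher and 0, 0 and 0 were lower. Calls over all genes moved as well. They numbered 2764 higher and 2309 lower in the report, 787, 596 and 637 higher and 480, 198 and 198 lower under those 3, and 1991 to 3518 higher and 1668 to 3603 lower under the other settings that kept all libraries. Pathway genes called lower numbered 2 with library totals, 8 with no filter and 3 by DESeq2. The cause was not tested. The replicate numbers were not shown to pair libraries (r = 0.038 between the replicate differences of the 2 groups over 16749 genes). With a replicate block 3 members were higher and 8 pathway genes lower, and with the block and GC-trend offsets 3 members were higher, 1 was lower and 13 pathway genes were lower. Leaving out each library gave 1 to 5 members higher, 0 to 3 lower, 7 to 28 pathway genes higher and 0 to 21 lower, with more calls where a Dox library was left out, since the spread then came from the control pair alone. The lone library of a group is assumed there to vary like the other group. The shares of all tested genes called in those fits are given above with the member counts. HLA-B was called in 8 and TAP1 in 10 of 17 alternatives.

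Direction changed for HLA-C (-0.025 without Dox replicate 2, and up to 0.34 without Dox replicate 1), for HLA-F (0.010 with library totals, 0.15 without Dox replicate 1 and 0.061 without control replicate 2), and for the PSMB10 to PSMB7 ratio, which ran from -0.32 to 0.061. The log2(TPM + 0.1) scale moved the median of all tested genes to 0.13. PSMB9 had the fewest counts of the 9 genes, with 98 to 157 a library.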
